A study of Mus musculus with 12 samples.

Results

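The genes described here are 10 genes commonly used as markers of macrophages and monocytes, namely C1qa, C1qb, C1qc, Csf1r, Adgre1, Cd68, Lgmn, Ms4a7, Cd14 and Marco. On the array they are the targets C1QA, C1QB, C1QC, CSF1R, EMR1, CD68, LGMN, MS4A7, CD14 and MARCO. They were taken by name, without regard to case, and account for 10 of 30774 target names and 15 of 45281 probes. Levels were measured in 12 end-stage lymphomas from mice on the C57BL/6 background. All of them, controls included, were driven by Eµ-Myc, a transgene that places Myc under the immunoglobulin heavy chain enhancer, active in B-lineage cells. The groups were 6 Smchd1 wildtype lymphomas and 6 Smchd1 null ones, the null being homozygous for a gene trap allele of Smchd1. Neither the ages of the mice nor the markers of the cell sort are given in the labels, and nothing there says that the replicates of a group came from separate animals. The p-values therefore measure the spread between these samples, which may be partly technical. Lymphomas are numbered as the sample labels number them, and the same number in both groups marks no pairing.

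Macrophages are tissue phagocytes that engulf dying cells, and monocytes are their relatives in blood. In Eµ-Myc lymphomas, where many cells die, macrophages filled with cell debris are a familiar sight in tissue sections. The genes divide by role into secreted C1q chains of the classical complement pathway, surface receptors (Csf1r, Adgre1, Cd14, Marco), an MS4A family membrane protein (Ms4a7), and proteins of lysosomes and endosomes (Cd68, Lgmn). The cells hybridised here were purified by sorting, and RNA was measured in bulk. Fewer cells of a type and less RNA per cell cannot be told apart in such samples.

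Each array was 1 lymphoma, with 14905 to 17724 of 45281 probes detected. A probe was called detected where its detection p against the 936 negative control probes was under 0.05. Arrays sat on 2 BeadChips, each with 3 wildtype and 3 null lymphomas. BeadChip 1 carried wildtype lymphomas 1, 2 and 3 with null lymphomas 4, 5 and 6, and BeadChip 2 carried the others. Levels are log2 normalized intensities. Of the 180 values of the 15 probes 113 were not detected, and these lay between 4.27 and 5.09. Smchd1 itself had means of 10.15 ± 0.31 (wildtype, SD, n = 6) and 5.78 ± 0.67 (null, SD, n = 6). The B cell marker Ms4a1, which encodes CD20, was detected in 11 lymphomas. It was lowest in null lymphoma 2 (5.09, not detected) and wildtype lymphoma 2 (5.32), and the others lay between 6.81 and 10.17. Ighm, the immunoglobulin heavy chain of IgM, was at 13.57 and 13.51 in those lymphomas, the lowest of the 12, against at most 14.63.

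Most of the macrophage genes lay at or near background in most lymphomas. Lgmn was detected in all 12 lymphomas and Cd68 in 11, Adgre1 in 8, C1qb and Csf1r in 6 each, C1qc and Cd14 in 4 each, C1qa and Ms4a7 in 3 each, and Marco in 2. The lymphomas differed in how many of the 10 genes they showed. Wildtype lymphoma 1 had 9 of the 10 detected and null lymphoma 2 had 8, whereas wildtype lymphoma 3 and null lymphoma 6 had only Cd68 and Lgmn. 9 of the 10 genes had a probe detected on at least 3 arrays and entered the test of null against wildtype. Marco did not, and its values are given without a test.

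**Figure D1:**
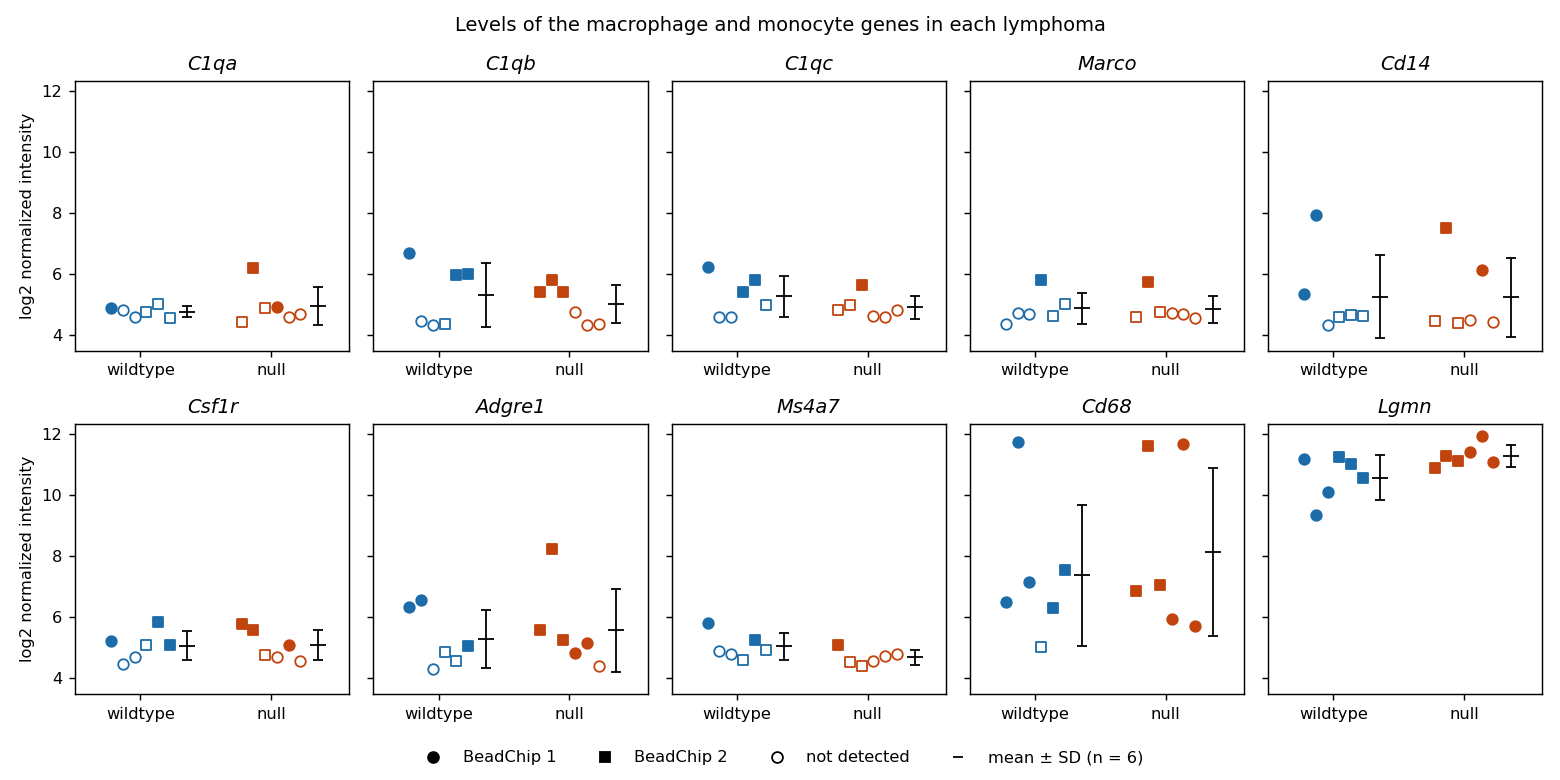
Log2 normalized intensity (y axis) of the brightest probe of each gene in the 6 wildtype (blue) and 6 null (orange) lymphomas, with circles for BeadChip 1, squares for BeadChip 2, open symbols for values not detected and the mean ± SD at the right of each group. Lgmn lies between 9.33 and 11.92 in all lymphomas, Cd68 stands at 11.6 to 11.74 in 3 lymphomas and at 5.02 to 7.54 in the others, and most other values lie near background.

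The C1q chains assemble into the recognition molecule of the classical complement pathway, which binds antibody and dying cells. In mice the genes C1qb, C1qc and C1qa lie next to each other on chromosome 4, with Ephb2 as the neighbour of C1qb on the other side. In wildtype lymphomas C1qb ran from 4.32 through a median of 5.21 to 6.68, and in null lymphomas from 4.32 through 5.07 to 5.81. The highest value belonged to wildtype lymphoma 1, with a raw intensity of 273.7. The groups overlapped up to 5.81, and wildtype lymphomas 6 (6.01) and 5 (5.97) also lay above all null ones. C1qc ran from 4.58 through 5.20 to 6.21 in wildtype and from 4.59 through 4.80 to 5.62 in null lymphomas. Wildtype lymphoma 1 was again highest, followed by wildtype lymphoma 5 (5.79) and null lymphoma 3 (5.62). C1qa ran from 4.54 through 4.77 to 5.02 in wildtype and from 4.42 through 4.77 to 6.19 in null lymphomas. The 11 other values lay between 4.42 and 5.02, and 6.19 belonged to null lymphoma 2, whose raw C1qa intensity was 106.6. Wildtype lymphoma 1 had a higher raw intensity of 122.8 but a normalized level of 4.88. The 95th percentile of the negative controls was 95.1 on the array of null lymphoma 2 and 119.6 on that of wildtype lymphoma 1.

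The promoter windows of C1qb and C1qc are shown because these genes are neighbours whose levels across lymphomas are compared below, and that of Cd68 because its levels were spread most widely of the 10. They are RefSeq sequences of GRCm38.p6, 250 bases before to 50 after the start, on the minus strand at chr4:136886151-136886450, chr4:136892865-136893164 and chr11:69666121-69666420. Capitals mark GAGGAA or its reverse complement TTCCTC, the core of sites bound by PU.1, the transcription factor encoded by Spi1 that macrophages and B cells share.
C1qb: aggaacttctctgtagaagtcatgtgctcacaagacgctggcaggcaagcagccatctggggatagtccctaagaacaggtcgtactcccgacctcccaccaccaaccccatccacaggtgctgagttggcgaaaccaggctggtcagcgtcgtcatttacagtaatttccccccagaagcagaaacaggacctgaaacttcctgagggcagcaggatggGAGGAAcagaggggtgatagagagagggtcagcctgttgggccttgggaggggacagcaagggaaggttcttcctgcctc
C1qc: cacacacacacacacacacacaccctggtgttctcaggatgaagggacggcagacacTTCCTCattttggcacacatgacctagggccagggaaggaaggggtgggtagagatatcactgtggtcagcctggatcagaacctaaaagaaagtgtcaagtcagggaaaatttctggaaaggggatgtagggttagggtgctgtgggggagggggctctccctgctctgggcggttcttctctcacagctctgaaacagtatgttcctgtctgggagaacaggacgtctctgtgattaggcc
Cd68: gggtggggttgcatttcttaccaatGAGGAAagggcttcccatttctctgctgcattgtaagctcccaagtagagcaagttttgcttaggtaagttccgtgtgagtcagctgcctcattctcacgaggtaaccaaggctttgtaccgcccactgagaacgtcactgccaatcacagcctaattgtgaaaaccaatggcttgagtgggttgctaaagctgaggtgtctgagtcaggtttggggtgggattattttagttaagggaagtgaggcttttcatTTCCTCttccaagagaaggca
The core occurred once in the C1qb window, once in the C1qc window and at 2 places in the Cd68 window, and 28.3% of all 32851 promoter windows of the table hold it on either strand. The Cd68 window also holds 2 copies of the AP-1 motif TGACTCA or TGAGTCA, which 5.2% of windows hold. The E-box CACGTG, a site to which Myc can bind, was in none of these windows and in 7.15% of all. These matches describe the letters only, and the PU.1 core can also lie within sites of other ETS family factors. Windows of 6 of the 10 genes were searched.

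Csf1r, the receptor for the cytokines CSF1 and IL-34 on which most macrophages depend, stayed close to background. Its brighter probe ran from 4.45 through 5.08 to 5.83 in wildtype and from 4.57 through 4.92 to 5.77 in null lymphomas, with raw intensities of at most 143.6. The highest values were those of wildtype lymphoma 5 and null lymphoma 1, and the groups overlapped throughout. The second Csf1r probe was detected only in null lymphoma 2, at 5.19.

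Adgre1 encodes an adhesion G protein-coupled receptor, the antigen commonly used to stain mouse macrophages. Its brightest probe ran from 4.30 through 4.95 to 6.55 in wildtype and from 4.38 through 5.20 to 8.22 in null lymphomas. Null lymphoma 2 was highest, and wildtype lymphomas 2 (6.55) and 1 (6.33) came next, while the other 9 lay between 4.30 and 5.58. On the raw scale null lymphoma 2 was at 190.5, wildtype lymphoma 2 at 186.3 and wildtype lymphoma 1 higher, at 233.0. The second probe was highest in null lymphoma 2 (7.90) and then in null lymphoma 1 (6.41), whereas wildtype lymphomas 1 and 2 were at 5.63 and 5.33. The probes thus placed null lymphoma 2 alike but differed on which lymphomas followed. The third probe was detected in null lymphoma 2 alone, at 7.03.

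Cd14 is a co-receptor for bacterial lipopolysaccharide. It ran from 4.32 through 4.64 to 7.93 in wildtype and from 4.40 through 4.46 to 7.50 in null lymphomas. It was detected in wildtype lymphoma 2 (7.93), null lymphoma 2 (7.50), null lymphoma 5 (6.12) and wildtype lymphoma 1 (5.35). Their raw intensities were 358.0, 143.9, 167.0 and 151.2, so null lymphoma 2 ranked above the last 2 only on the normalized scale. The other 8 values lay between 4.32 and 4.64, none of them detected. Marco, a scavenger receptor of marginal zone and some other macrophages, was detected only in wildtype lymphoma 4 (5.80) and null lymphoma 2 (5.74), with raw intensities of at most 124.8. Ms4a7, a membrane protein found in macrophages, was measured by 3 probes, 2 of them detected in no lymphoma. The remaining probe ran from 4.59 through 4.90 to 5.81 in wildtype and from 4.38 through 4.64 to 5.08 in null lymphomas. It was detected in wildtype lymphomas 1 and 5 and in null lymphoma 1.

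Cd68, a heavily glycosylated protein of late endosomes and lysosomes that phagocytes hold in large amounts, had the widest spread of the 10 genes. In wildtype lymphomas it ran from 5.02 through 6.83 to 11.74, and in null lymphomas from 5.72 through 6.95 to 11.68. 3 lymphomas stood far above the others, namely wildtype lymphoma 2 (11.74), null lymphoma 5 (11.68) and null lymphoma 2 (11.60). Their raw intensities were 4164.1, 4308.2 and 1453.5, while no other lymphoma passed 251.1. The remaining 9 lymphomas lay between 5.02 and 7.54, and wildtype lymphoma 4 was not detected. Over the 12 lymphomas the SD of Cd68 was 2.46, and 99.4% of the 12822 genes tested had a smaller one. The SD of Cd14 was 1.27 and that of Adgre1 was 1.13, above 93.6% and 91.6% of genes. The C1q chains were less spread, with SDs from 0.46 (C1qa) to 0.83 (C1qb), against a median of 0.47 over all genes.

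The lymphomas with high Cd68 differed from the others in B cell genes too. The mean log2 level of 10 B cell genes was 8.82 in wildtype lymphoma 2, 8.88 in null lymphoma 2 and 9.12 in null lymphoma 5, the 3 lowest of the 12. The other 9 lymphomas were at 10.22 to 11.26. Ms4a1 was at 5.32, 5.09 and 6.88 in the same 3 lymphomas. Dendritic cell genes, a list of 14 of which 11 were tested, had means of 8.28, 8.35 and 7.92 there and of 6.00 to 8.08 elsewhere, with 8.08 in wildtype lymphoma 1. The part of other cell types in the Cd68 levels was not tested.

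The genes whose pattern came closest to that of Cd68 were chosen after its values were seen, and because the lymphomas fall into separate levels of Cd68 no correlation over all 12 is given. These were Septin3, Ephb2 (an ephrin receptor), Fut7 (a fucosyltransferase that makes selectin ligands), Mycl (a relative of Myc), Rasgrf1 (a Ras exchange factor), Grn (progranulin, a lysosomal and secreted growth factor), Mgl2 (a C-type lectin of macrophages and dendritic cells) and Gpr35. Grn was at 13.10 in wildtype lymphoma 2, 12.82 in null lymphoma 2 and 13.30 in null lymphoma 5, and between 9.39 and 11.25 in the others. Mgl2 was at 8.37, 9.06 and 8.53 in the 3 lymphomas and at most 6.27 in the others. Ephb2, although the neighbour of C1qb, followed Cd68, with 8.59, 8.45 and 9.06 there and at most 5.21 elsewhere. Within the other 9 lymphomas Adgre1, Cd14 and Lgmn had r = 0.21, -0.05 and -0.67 with Cd68. The 8 genes named as closest had r from 0.55 (Gpr35) to 0.82 (Grn) there, and they were chosen over all 12 lymphomas, these 9 included. These 9 points share normalization, and r is given as a description.

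**Figure D2:**
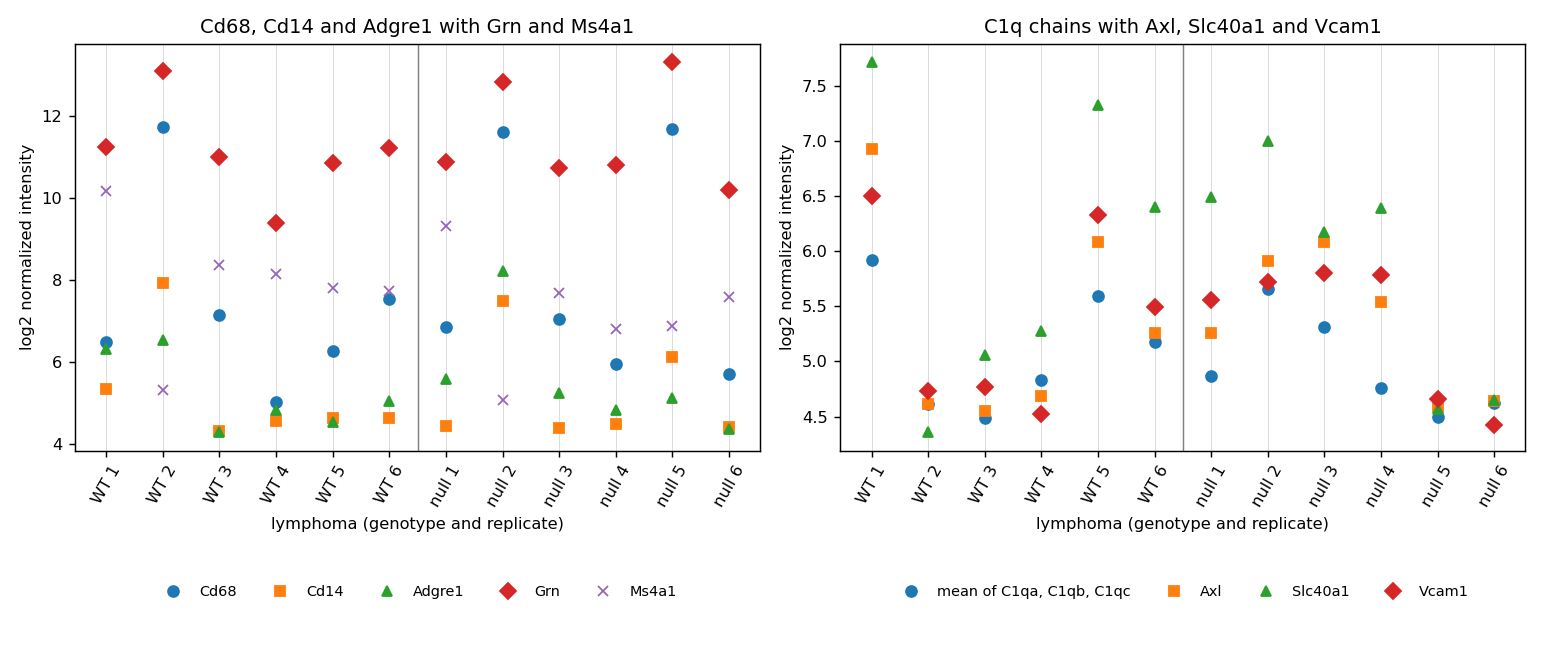
Log2 normalized intensity (y axis) in each of the 12 lymphomas (x axis, 1 point per lymphoma and gene). At the left, Cd68 and Grn are highest in wildtype lymphoma 2 and null lymphomas 2 and 5, and Ms4a1 is lowest in 2 of these, at 5.32 and 5.09. At the right, the mean of the C1q chains and Axl, Slc40a1 and Vcam1 are highest in wildtype lymphoma 1 and near 4.5 in null lymphomas 5 and 6.

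Lgmn encodes legumain, an asparagine-specific protease of lysosomes. It was well above background in every lymphoma, with raw intensities of 834.4 to 5039.2. In wildtype lymphomas it ran from 9.33 through 10.78 to 11.25 and in null lymphomas from 10.90 through 11.20 to 11.92. Null lymphoma 5 was highest and wildtype lymphomas 2 (9.33) and 3 (10.10) were lowest, so 2 of the lymphomas highest in Cd68 held the highest and the lowest Lgmn. The groups overlapped. None of the correlations of Lgmn with Cd68 given here passed adjustment. In the 9 lymphomas without the 3 highest in Cd68, r was -0.67 (permutation p = 0.0484, adjusted 0.218). There rho was -0.72 (permutation p = 0.0369, adjusted 0.343), and this set of lymphomas was chosen after the values were seen. Within wildtype lymphomas r was -0.92 (exact permutation p = 0.00833, adjusted 0.1 over 36 pairs, n = 6). There rho was -0.89 (permutation p = 0.0333, adjusted 0.4), and wildtype lymphoma 2 had both the highest Cd68 and the lowest Lgmn of the group. Within null lymphomas r was 0.62 (exact permutation p = 0.174, n = 6) and rho was 0.54, with null lymphomas 2 and 5 far above the others in Cd68. The difference between the genotypes in r was not tested.

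The comparison of null with wildtype lymphomas asks whether the levels of these genes differ with loss of Smchd1. None of the 9 tested genes passed the threshold (adjusted p under 0.05, limma over 12822 genes), where 0.0234% of all genes did, 0.0078% higher and 0.0156% lower in null. The second Adgre1 probe, fitted among all 18921 detected probes, did not pass either, where 0.0159% of probes did. Lgmn was the only 1 of the 9 with an unadjusted p under 0.05, a threshold that 1.46% of all genes met. The groups overlapped for all 15 probes, and 0.0858% of genes had groups that did not. The median log2 change over the 9 genes was 0.007, beside -0.001 over all genes tested, with 5 of the 9 higher in null and 4 lower. All 9 tested genes had an adjusted p of 1 in limma.

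Lgmn was higher in null lymphomas by 0.72 ± 0.32 on the log2 scale (SE, 95% interval 0.02 to 1.41, unadjusted p = 0.0443 and adjusted p = 1 in limma). Group means were 10.57 ± 0.75 for wildtype and 11.29 ± 0.36 for null (SD, n = 6 each). On BeadChip 1 the difference was 1.27 and on BeadChip 2 it was 0.16, and without wildtype lymphoma 2 it was 0.47. Its unadjusted p was 0.138 under median scaling and 0.0511 with BeadChip as a block in limma. Cd68 differed by 0.77 ± 1.30 (95% interval -2.04 to 3.57), the widest interval of the 9. Its difference was -0.69 on BeadChip 1, 2.22 on BeadChip 2, and -0.11 without wildtype lymphoma 2 and null lymphomas 2 and 5, a setting chosen after the values were seen.

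The C1q chains did not differ beyond the spread between lymphomas. The log2 difference was 0.18 ± 0.27 for C1qa, -0.28 ± 0.45 for C1qb and -0.36 ± 0.30 for C1qc, with 95% intervals of -0.40 to 0.76, -1.26 to 0.69 and -1.0 to 0.29. Without null lymphoma 2 the C1qa difference was -0.07, and on BeadChip 2 alone that of C1qb was 0.10. For the receptors it was 0.01 ± 0.27 for Csf1r, 0.30 ± 0.61 for Adgre1 and -0.01 ± 0.69 for Cd14. The Adgre1 difference was 0.54 ± 0.53 by the second probe and -0.23 without null lymphoma 2. Ms4a7 differed by -0.37 ± 0.22 (95% interval -0.84 to 0.10). The offset added after background correction compresses differences near background, so small true changes in the dim genes may not be detectable on these arrays.

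**Figure D3:**
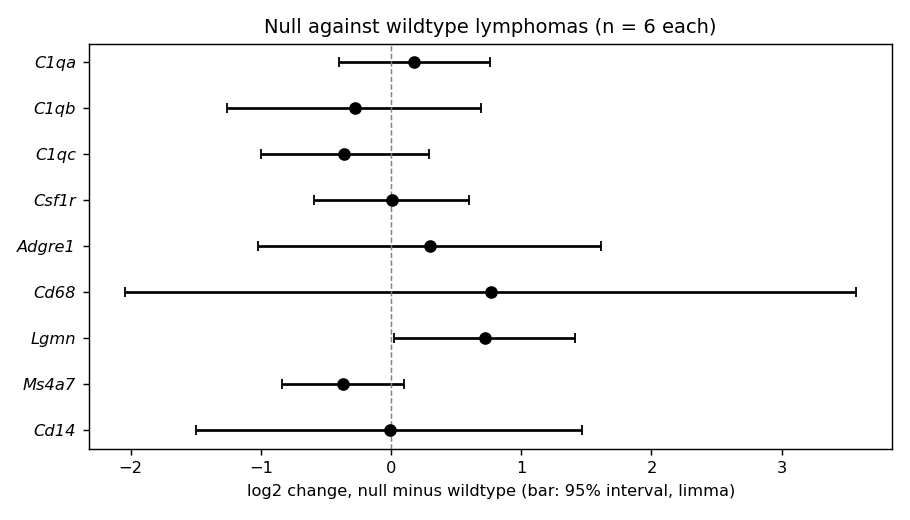
Log2 change of each tested gene, null minus wildtype (x axis), as a point with its 95% interval from limma (n = 6 lymphomas per group), 1 gene per line. Lgmn at 0.72 is the only gene whose unadjusted interval lies above 0, and the interval of Cd68 spans -2.04 to 3.57.

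The 2 BeadChips gave different null minus wildtype differences for some of the genes. For Adgre1 the difference was -0.94 on BeadChip 1 and 1.53 on BeadChip 2, and it was larger on BeadChip 2 by 2.48 ± 1.08 (unadjusted p = 0.0433 and adjusted p = 0.872, limma interaction). No gene of the 12822 passed that test after adjustment (0.0% called), and 4.2% had an unadjusted p under 0.05. Wildtype lymphomas 1 and 2, with Adgre1 at 6.33 and 6.55, lay on BeadChip 1, and null lymphoma 2, with 8.22, lay on BeadChip 2. The level of the C1q chains also differed between the BeadChips. Their mean had a median of 4.61 on BeadChip 1, where wildtype lymphoma 1 stood alone at 5.92, and of 5.24 on BeadChip 2. The arrays of BeadChip 2 had lower raw intensities, and the part of array brightness in these levels was not tested.

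Across the 12 lymphomas, the 9 tested genes did not vary as 1 block. Of 36 pairs of genes, 0 had a correlation with adjusted p under 0.05 (permutation test with Benjamini-Hochberg adjustment over the pairs). Among the 28 pairs without Cd68, r ran from -0.27 to 0.81 with a median of 0.25, and 20 were above 0. The highest was that of Adgre1 and Cd14, with r = 0.81 and rho = 0.64 (two-sided permutation p = 0.00489 and 0.0271, adjusted 0.088 and 0.422). It was 0.80 on BeadChip 1 and 0.94 on BeadChip 2. Without the 2 lymphomas farthest from the median of Adgre1 r was 0.43 (permutation p = 0.203), and without wildtype lymphoma 2 and null lymphomas 2 and 5 it was 0.74 (permutation p = 0.0442, adjusted 0.218, n = 9). C1qb and C1qc had r = 0.71 and rho = 0.70 (permutation p = 0.00981 and 0.0142, adjusted 0.118 and 0.422). Without the 2 lymphomas farthest from the median of C1qb r was 0.60 (permutation p = 0.0626). On BeadChip 1, where wildtype lymphoma 1 alone had either gene detected, r was 0.98, and on BeadChip 2 it was -0.11, so the relation did not hold within BeadChip 2. With 1 lymphoma left out at a time, r ran from 0.54 without wildtype lymphoma 1 to 0.82 without wildtype lymphoma 4. In wildtype lymphoma 4 C1qc was at 5.41 and C1qb at 4.35. The adjusted p of 0.0263 (permutation test) without it belongs to the highest of these values and is not taken as a result.

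**Figure D4:**
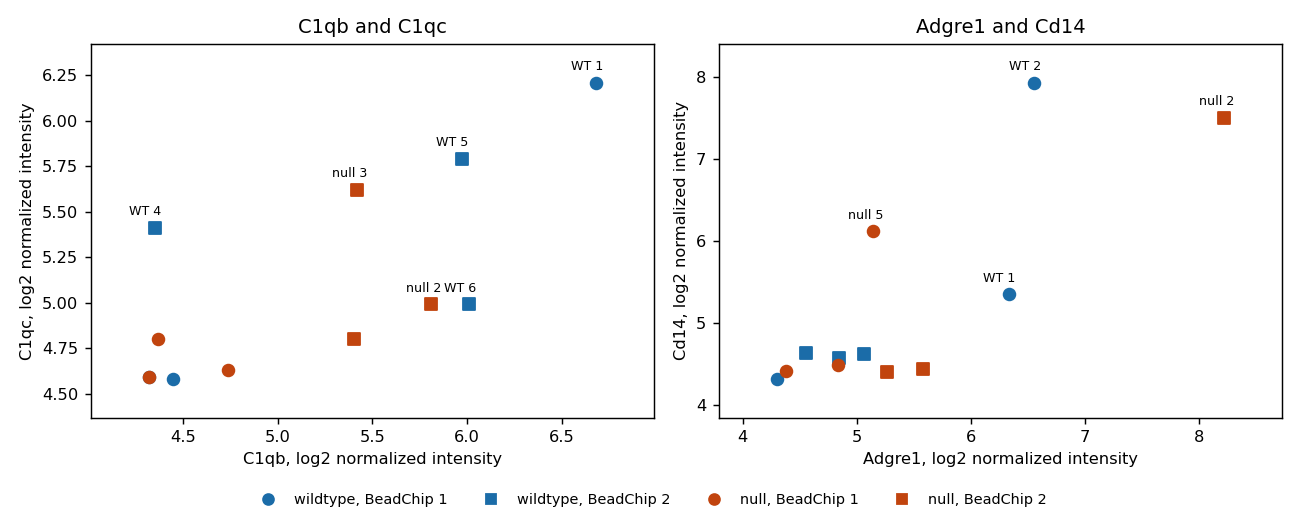
Log2 normalized intensity of C1qc against C1qb (left) and of Cd14 against Adgre1 (right), 1 point per lymphoma, coloured by genotype and shaped by BeadChip, with the lymphomas named in the text labelled. C1qb and C1qc (r = 0.71, n = 12) are both highest in wildtype lymphoma 1, and the highest values of Adgre1 and Cd14 (r = 0.81, n = 12) are those of null lymphoma 2 and wildtype lymphoma 2.

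The genes whose pattern came closest to the mean of the C1q chains were Axl (r = 0.93), Slc40a1 (r = 0.89) and Vcam1 (r = 0.85). Axl is a receptor through which phagocytes recognise dying cells, Slc40a1 encodes ferroportin, the iron exporter, and Vcam1 is an adhesion molecule, and all of them are known from macrophages of spleen and bone marrow. Other macrophage genes followed the C1q mean less closely. The median r with it was 0.35 over 10 macrophage identity genes, Slc40a1 and Vcam1 included. It was 0.01 over 12 scavenger and clearance genes, Axl included, and -0.01 over all genes tested. The mean of the C1q chains itself was highest in wildtype lymphoma 1 (5.92), null lymphoma 2 (5.66) and wildtype lymphoma 5 (5.59), and lowest in wildtype lymphoma 3 (4.49) and null lymphoma 5 (4.50). Axl was at 6.93, 5.91 and 6.08 in the first 3 of these lymphomas and at 4.55 and 4.59 in the last 2. Slc40a1 was at 7.71, 7.0 and 7.32 in the first 3, and Vcam1 at 6.50, 5.72 and 6.33. With the C1q mean, Axl had r = 0.96 and 0.86 within BeadChips 1 and 2, Slc40a1 had 0.89 and 0.80, and Vcam1 had 0.88 and 0.76. Without wildtype lymphoma 1 these were 0.89, 0.85 and 0.80 over all others. The 3 genes were picked by r over the same 12 lymphomas, so values within parts of them are no separate support. A ranking made without wildtype lymphoma 1 shared 0 of its 12 closest genes with this one. Further down the ranking of 12 came Herpud2 (0.80), Sphk2 (0.79), Gm5836 (0.78) and the natural killer receptor gene Klra7 (0.77), with 5 targets without a RefSeq name, among them T cell receptor beta segments. The glycolytic enzyme gene Eno1 (r = -0.82) was among the 5 least alike, with AI597479, Washc5 and Olfr437. These correlations across 12 lymphomas describe a ranking over all genes and carry no test. Wildtype lymphoma 1 also had the highest mean of 7 natural killer cell genes (8.35), and its mean over 16 T cell genes (8.06) was second to that of null lymphoma 1 (9.32). The part of those cells in its C1q level was not tested.

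Other genes of the same cells and pathways were followed through 8 lists with 106 distinct tested genes. Of these, 0 passed the threshold in limma, 58 were higher in null and 48 lower, and the median log2 change was 0.008. An unadjusted p under 0.05 was found for 2, F13a1 and Tlr4, or 1.89%, beside 1.46% of all genes. F13a1, coagulation factor XIII A of monocytes, was detected in 0 wildtype and 4 null lymphomas. It entered the test only through the null lymphomas, so the filter favoured its direction, and its p is not given. The counts and the median above still hold it, as do those of the monocyte genes below. With its wildtype values set as described under processing, F13a1 was 1.16-fold higher in null (mean levels 4.50 and 5.20, adjusted p = 1 in limma). Its null mean holds values not detected, so this is not a lower bound. Tlr4, the signalling receptor that works with Cd14, had means of 6.47 ± 0.77 for wildtype and 5.64 ± 0.26 for null (SD, n = 6 each), a difference of -0.83 ± 0.32 (unadjusted p = 0.0214, adjusted p = 1 in limma).

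By list, 10 genes of macrophage identity were tested of 26 on the array, 5 higher and 5 lower in null with a median change of -0.011. Lyz2, lysozyme, differed by 0.45 ± 0.69 and Mrc1, the mannose receptor, by -0.40 ± 0.27. Of the 22 monocyte genes on the array 10 were tested, 6 higher, F13a1 among them, and 4 lower (median 0.186). The 14 tested genes around Csf1r and its transcription factors had 8 higher and 6 lower (median 0.206), with 0.48 ± 0.26 for Spi1, 0.80 ± 0.44 for the GM-CSF receptor gene Csf2ra, 0.79 ± 0.39 for Klf4 and -0.36 ± 0.35 for Irf5. Among 14 complement genes 7 were higher and 7 lower (median 0.009). Cfp, properdin of the alternative pathway, ranged from 7.51 to 13.26 over the lymphomas and was highest in null lymphoma 1, where C1qb was at 5.40. The 20 genes of lipopolysaccharide recognition divided into 9 and 11 (median -0.096), the 25 lysosomal genes into 16 and 9 (median 0.129), the 12 scavenger and clearance genes into 8 and 4 (median 0.04) and the 3 MS4A genes into 1 and 2 (median -0.012). Stab1, a scavenger receptor, ranged from 7.02 in wildtype lymphoma 1 to 13.39 in null lymphoma 4, and differed by 1.09 ± 0.85. None of these values passed the test.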

How the data were processed

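The 12 sorted lymphomas were profiled on Illumina MouseWG-6 BeadChips of version 2, as the file headers state. Per the file headers, the authors exported unnormalized intensity, the average over the beads of a probe, from GenomeStudio 1.6.0. Detection was deposited as a fraction in 1 table, which is 1 minus the detection p-value deposited in another. The deposited SD over beads is a signal that was read beside the intensity. The authors' value table holds log2 normalized intensities and differed from the values computed here by at most 0.0163. BeadStudio, limma 3.12.1 and R 2.15.1 are named in the submitters' processing notes.

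Here limma 3.58.1 in R 4.3.3 was used. Background was corrected by normexp with 936 negative controls, an offset of 16 was added, arrays were quantile normalized and log2 was taken. Probes detected on at least 3 of 12 arrays were kept (18921), then the brightest probe per gene (12822 genes). Null minus wildtype was tested with lmFit and eBayes without covariates, with Benjamini-Hochberg adjustment over all genes. Groups and replicate numbers came from the sample titles. Correlations used 100000 permutations. A gene detected in no lymphoma of a group was set against the higher of its own value and the lowest detected value on each array of that group. The model was tested on simulated data. Target names were matched to the RefSeq table for GRCm38.p6. The files name no build, so the only coordinates printed are those of RefSeq promoter windows, given in that build.

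The 10 genes and the lists were chosen with earlier results of these data known. Genes named are the 10, from each list the 2 with the smallest p and the 2 closest to the C1q mean, the 12 closest and the 5 least close to that mean among all genes, and B cell markers, of which 2 are not reported here. The genes closest to Cd68 and the mean levels of cell type lists per lymphoma were added after values were seen. 16 lists were examined beside the 10 genes. Alternatives were other background, scaling, offset, detection and probe choices, blocks, array weights, each BeadChip alone, the value table, and each lymphoma left out.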

Additional observations from a re-analysis of the deposited data

Results flagged for a closer look

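In 5 of 22 groups of 6 values the highest lymphoma stood apart from the nearest other by more than Dixon's 95% limit for 6 values, of which chance gives about 1 in 20. Cd68 was at 11.74 in wildtype lymphoma 2, with the next wildtype value at 7.54, a gap of 0.625 of the range. Cd14 was at 7.93 in the same lymphoma, with the next at 5.35 (0.716 of the range). Null lymphoma 2 stood apart in the other 3 groups. Adgre1 was at 8.22 there with the next null value at 5.58 (0.688 of the range), C1qa at 6.19 with the next at 4.91 (0.721) and Marco at 5.74 with the next at 4.76 (0.824). Its raw Marco intensity was 100.6, below the 110.5 of null lymphoma 3, so this gap is on the normalized scale, and its array was the dimmest (mean raw intensity 254.65). Ms4a1 was lowest in these lymphomas, at 5.32 and 5.09.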

How the results depend on the processing

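None of the 9 tested members and none of the 106 listed genes passed the threshold in limma in the alternatives in which it was tested (26, or 25 for C1qa, C1qc, Ms4a7 and Cd14). Marco was not among the 9. The adjusted p of the members ran from 0.999 to 1. Lgmn stayed higher in null in 26 of 26 alternatives (0.16 to 1.27), and C1qc (-0.50 to -0.13) and Ms4a7 (-0.47 to -0.15) stayed lower in 25 of 25. C1qb was lower in 25 of 26, the exception being BeadChip 2 alone (0.10). Other directions turned with the processing. Under median scaling Csf1r was at -0.08 and Adgre1 at -0.04. On BeadChip 1 alone C1qa was at -0.03, Csf1r at -0.02, Adgre1 at -0.94 and Cd68 at -0.69, and on BeadChip 2 alone Cd14 was at 0.83. With array weights Csf1r was at -0.19 and Cd14 at 0.05. Without wildtype replicate 2 and null replicates 2 and 5, chosen after seeing the data, C1qa was at -0.03, Csf1r at -0.24, Adgre1 at -0.005 and Cd68 at -0.11. The cause was not tested.

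With 1 lymphoma left out at a time, the change ran from -0.07 (without null 2) to 0.29 for C1qa, -0.13 (without null 1) to 0.16 (without wildtype 5) for Csf1r, -0.23 (without null 2) to 0.55 (without wildtype 2) for Adgre1, 0.06 (without null 5) to 1.64 (without wildtype 2) for Cd68 and -0.47 (without null 2) to 0.53 (without wildtype 2) for Cd14. The number of all genes past the threshold was 3, ran from 3 to 5 (without wildtype 2) with 1 lymphoma left out, and was 1 on BeadChip 1 alone, 0 on BeadChip 2 alone and 5 without the 3 lymphomas named above. The correlation of C1qb and C1qc ran from 0.54 to 0.82 with 1 lymphoma left out and was -0.11 on BeadChip 2 alone.

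Of the 12 genes closest to the C1q mean, those shared with the same ranking numbered 5 under median scaling, 1 on BeadChip 1, 0 on BeadChip 2, 2 within wildtype, 0 within null and 3 without the 3 lymphomas, and from 0 (without wildtype 1) to 11 with 1 lymphoma left out, so the ranking depends on single lymphomas.

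Replicate numbers were not taken to pair the samples, since deviations of same-numbered lymphomas correlated above 0.1 in 4 of 6 pairs only (0.67, 0.681, 0.286 and 0.172, against -0.261 and -0.23). Replicates 1 and 2 correlated best with their own number, a hint from the data and not from the design. With the replicate number as a block 3 genes passed, none of them a member, with SEs of 0.29 for Cd14 and 0.33 for Adgre1. Of the 180 member values 113 were not above the negative controls, which limits what can be seen there, as does the number of arrays.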

Other observations

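Mean levels of T cell and erythroid markers differed widely between single lymphomas. The mean over 16 T cell genes was 9.32 in null lymphoma 1 and 8.06 in wildtype lymphoma 1, and as low as 5.48 in null lymphoma 4. Of the 16 genes 5 were higher in null and 11 lower (median log2 change -0.232), and 0 passed the threshold (limma, 0 with an unadjusted p under 0.05). Among the 11 was Ctla4, detected in 3 wildtype and 0 null lymphomas. It entered the test only through the wildtype lymphomas, so the filter favoured its direction in this count and median. Cd3d, a chain of the T cell receptor complex, was at 11.95 in null lymphoma 1. The mean over 12 erythroid genes was 7.40 in null lymphoma 1 and 7.28 in null lymphoma 2, against 4.90 to 6.93 in wildtype lymphomas. The lowest of all lymphomas was also a null one, null lymphoma 5 at 4.84. Of these genes 10 were higher in null and 2 lower, and 0 passed the threshold (limma, 0 with an unadjusted p under 0.05). The 14 neutrophil genes had 12 higher in null and 2 lower (median log2 change 0.369). Of 12 natural killer genes on the array 7 were tested, and all 7 were lower (median -0.814). In either list 0 genes passed the threshold. An unadjusted p under 0.05 (limma) was found for 0 neutrophil genes and for 1 natural killer gene, Klrb1c, beside 1.46% of all genes. Among the 7, Klrb1c and Klre1, natural killer receptor genes, were detected in 4 and 3 wildtype lymphomas and in 0 null ones. Both entered the test only through the wildtype lymphomas, so the filter favoured their direction in the counts and the median. Klrb1c was at 4.90 to 5.26 in wildtype and at 4.37 to 4.80 in null lymphomas. Its groups thus did not overlap, as was so for 0.0858% of all genes. With its null values set as described under processing, Klrb1c was 1.05-fold lower in null (adjusted p = 1 in limma). Its wildtype mean holds values not detected, so this is not a lower bound. The 7 stromal and endothelial genes had means of 5.23 to 5.97 over all lymphomas, and the 2 platelet genes of 4.37 to 5.51.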
